A study of Homo sapiens with 26 samples.

Results

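The genes described here encode proteins of the inner nuclear membrane and the membrane-spanning nucleoporins. The set holds 10 genes, NUP210, NDC1, POM121, POM121C, LBR, EMD, LEMD3, TMPO, SUN1 and SUN2. They were taken by name, but with earlier results of these data known. They stand among 58849 entries of the ribosome profiling files and 60663 genes of the RNA-seq files. NUP210, NDC1, POM121 and POM121C anchor the nuclear pore complex in the nuclear membrane. LBR binds B-type lamins and carries a sterol reductase domain, LEMD3 binds SMAD proteins, and SUN1 and SUN2 reach into the perinuclear space to meet nesprins and so couple the nucleus to the cytoskeleton. EMD (emerin) and TMPO (LAP2) are LEM-domain proteins that bind the chromatin factor BANF1.

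The inner nuclear membrane is continuous with the ER, and its proteins are first inserted into the ER membrane and then move past the nuclear pores. A protein whose first hydrophobic segment emerges early from the ribosome is usually recognized by the signal recognition particle and made by ribosomes docked on Sec61. A tail-anchored protein has its only segment at the C-terminus, which leaves the ribosome only when synthesis ends, so that insertion follows translation. The comparison asked for here sets the multi-pass members, NDC1, LBR and LEMD3, against tail-anchored EMD and TMPO. POM121, POM121C, SUN1 and SUN2 cross the membrane once, with the anchor not at the C-terminus. NUP210 also crosses once, near its C-terminus, but begins with a signal sequence. These single-pass members are given beside them.

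All libraries came from HEK293T, a human embryonic kidney line, in which the endogenous ribosomal protein RPL29 bears an Avi tag, a short acceptor for biotin. LOV-BirA, a biotin ligase that blue light switches on, was fused to Sec61β at the ER, fused to the transmembrane domain of OMP25 at the outer mitochondrial membrane (OMM), or left free in the cytosol. Cells treated with the elongation inhibitor cycloheximide (CHX) were given biotin and light, and ribosome footprints were sequenced from the total input and from the streptavidin pulldown of each lysate, with 2 replicates per location and 12 libraries. Intact mRNA pulled down with OMM LOV-BirA was sequenced from wild-type cells with a negative control gRNA, AKAP1 null cells and LARP4 null cells, 2 replicates each, and from wild-type cells without CHX, with 1 replicate and a shorter labeling, 14 libraries in all. AKAP1 is an OMM protein that binds RNA and LARP4 is an RNA-binding protein. Each null genotype was 1 monoclonal line, so genotype and clone cannot be told apart, and CHX in these lines is taken from the general protocol. The LOV-BirA constructs were stably expressed after lentiviral transduction. The study calls its OMM footprint replicates biological. For the other groups the sources used here do not say whether replicates were separate cultures, so p-values measure the spread between these lysates, which may be technical.

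Footprint libraries held 1025114 to 19539527 estimated counts in coding sequences, the smallest being the OMM pulldowns, and RNA-seq libraries held 38347615 to 100840544 counts. AKAP1 stood at 115 and 119 CPM in wild-type total inputs and at 32.2 and 20.3 CPM in AKAP1 null cells. LARP4 stood at 225 and 231 CPM in wild type and at 79.3 and 74.0 CPM in LARP4 null cells. Over 7 RNA-seq total inputs the HEK293T markers VIM, KRT18 and NEFM lay at 442 to 692, 41.5 to 55.9 and 25.4 to 48.9 CPM. KRT8, of the same list, lay lower at 3.88 to 20.3 CPM. PTPRC, a blood cell marker, lay at 0 to 0.0261 CPM. The embryonic kidney factor PAX2 was present at 5.25 to 10.3 CPM.

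The coding sequences of the segments of TMPO and the 3 multi-pass members show the contrast in position that defines the groups. Segments were found in the canonical proteins of GENCODE 44 as windows of 19 residues whose average on the Kyte-Doolittle scale reached 1.6. Each run below is GRCh38 sequence read 5′ to 3′ on the coding strand, with the codons of the hydrophobic segment in capitals. For tail-anchored TMPO the run goes on in lower case to the stop codon, to show how little follows the segment. TMPO (segment at residues 407 to 437 of 454 in LAP2β) is read from chr12:98547712-98547858, plus strand. NDC1 (residues 20 to 52 of 674) is read from chr1:53835522-53835620, minus strand, and LEMD3 (residues 468 to 496 of 911) from chr12:65170998-65171084, plus strand. LBR (residues 207 to 236 of 615) is joined from 2 exons, chr1:225419263-225419284 and chr1:225418113-225418180, minus strand.
TMPO: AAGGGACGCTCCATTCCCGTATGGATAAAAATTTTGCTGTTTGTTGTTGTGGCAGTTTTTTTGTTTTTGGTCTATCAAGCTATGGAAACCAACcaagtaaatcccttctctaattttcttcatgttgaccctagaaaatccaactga
NDC1: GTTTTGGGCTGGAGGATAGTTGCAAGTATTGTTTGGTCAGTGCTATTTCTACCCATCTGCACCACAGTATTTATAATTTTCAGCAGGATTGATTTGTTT
LEMD3: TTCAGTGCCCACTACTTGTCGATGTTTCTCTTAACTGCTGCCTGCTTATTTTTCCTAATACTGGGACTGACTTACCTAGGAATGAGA
LBR: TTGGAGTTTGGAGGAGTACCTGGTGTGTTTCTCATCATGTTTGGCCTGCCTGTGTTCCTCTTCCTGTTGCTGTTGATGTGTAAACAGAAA
All 4 segments are rich in codons with T in the middle position, which encode only hydrophobic residues. Such codons number 17 of 31 in TMPO, 19 of 33 in NDC1, 15 of 29 in LEMD3 and 19 of 30 in LBR. The segments therefore differ little in this feature and a great deal in place. Only 17 codons in TMPO lie between the segment and the stop codon, and in EMD 4 residues follow the segment, whereas 622 residues follow the first segment of NDC1, 415 that of LEMD3 and 379 that of LBR. Of the single-pass members, NUP210 has its first hydrophobic stretch at residues 7 to 26, its signal sequence, and its last at residues 1807 to 1833 of 1887. POM121 has its segment at residues 28 to 64 of 1249, SUN1 at 279 to 312 of 785 and SUN2 at 207 to 231 of 717. POM121C has none in its canonical protein of 987 residues, and its other annotated protein has one at residues 28 to 64. Of 5 TMPO proteins in the annotation, those of 694 and 248 residues have no segment, and reads of TMPO pool all isoforms.

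How much of each gene was counted differs and bears on each value. The deposited coding count covered 2025 positions for NDC1, 2736 for LEMD3, 5148 for NUP210 and 1236 for LBR. For EMD it covered 95 positions, 12.5% of 762 coding bases, and for POM121 298 positions, 7.95%. For TMPO it covered 2445 positions, 180% of the 1362 coding bases of LAP2β, so positions outside LAP2β were counted. The TMPO values, at the ER too, therefore pool isoforms with and without a segment, and their shares were not tested. POM121 and POM121C are near-identical copies, so their values are uncertain, and the POM121C entry also names the overlapping ENSG00000242073. The SUN1 entry also names GET4 and the SUN2 entry DNAL4. In wild-type RNA-seq total inputs SUN1 took 95.8% and 96.2% of the counts of SUN1 and GET4 together, and SUN2 took 75.4% and 71.5% of those of SUN2 and DNAL4. In GRCh38 the genes lie on chromosome 1 (NDC1, ENSG00000058804, and LBR, ENSG00000143815), 3 (NUP210, ENSG00000132182), 7 (POM121, ENSG00000196313, POM121C, ENSG00000272391, and SUN1, ENSG00000164828), 12 (LEMD3, ENSG00000174106, and TMPO, ENSG00000120802), 22 (SUN2, ENSG00000100242) and X (EMD, ENSG00000102119), and the segments printed above are exonic coding sequence. The genes with an entry of their own and enough footprints for a test were 6 of 10: NUP210, NDC1, LBR, LEMD3, EMD and TMPO. In RNA-seq all 10 were tested.

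In total inputs the members spanned a wide range of footprint density. Over 6 total inputs EMD had a median of 342 RPKM (300.8 to 399), LBR 191 (182 to 250.2) and TMPO 139 (127 to 162), all above NDC1 at 41.5 (34.4 to 46.1) and NUP210 (26.7 to 44.5). NDC1 and NUP210 overlapped. LEMD3 followed at 19.7 (17.4 to 23.1) and POM121 at 17.9 (12.9 to 24.5), again overlapping. The order by mRNA was not the same. In RNA-seq per kilobase, LBR had a median of 70.9 FPKM over 7 total inputs, EMD 51.6, NDC1 50.9 and TMPO 48.7, against 22.6 to 28.9 for NUP210 and a median of 13.1 for LEMD3.

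With LOV-BirA at the ER, footprints of the multi-pass members were enriched in the pulldown of both lysates and those of the tail-anchored members were depleted. NDC1 rose from 34.4 and 45.4 RPKM in the total inputs to 159 and 197 in the pulldowns of the same lysates. LBR rose from 188 and 250.2 to 577 and 749, and LEMD3 from 17.4 and 17.9 to 73.6 and 69.1. In all 3 genes both pulldowns lay above both total inputs. As log2 ratios of RPKM within a lysate, replicates 1 and 2 gave 2.21 and 2.12 for NDC1, 1.62 and 1.58 for LBR, and 2.08 and 1.94 for LEMD3. EMD, in contrast, went from 331 and 327 RPKM in total inputs to 229 and 214 in ER pulldowns, log2 ratios of -0.53 and -0.61. TMPO went from 139 and 160.0 to 74.7 and 88.7, log2 ratios of -0.90 and -0.85. The pulldowns of EMD and of TMPO lay below both of their total inputs.

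Enrichment was then fitted with edgeR's quasi-likelihood test over all 12 libraries, with coding counts scaled to their library totals and each total input paired with its pulldown, and a gene was called at a Benjamini-Hochberg adjusted p below 0.05. In this fit NDC1 had a log2 enrichment at the ER of 1.88 ± 0.09 (SE, adjusted p = 5.7e-12), LEMD3 of 1.73 ± 0.11 (1.9e-10) and LBR of 1.32 ± 0.10 (5.7e-10). EMD had -0.85 ± 0.14 (1.25e-05) and TMPO -1.16 ± 0.09 (2.8e-09). With NUP210, 4 of the 6 tested members were called enriched, where 19.8% of the 7381 genes tested were, and 2 were called depleted, where 72% were. The median of all genes was -0.68 on this scale, so EMD stood 0.17 and TMPO 0.48 below the typical gene (for EMD, 0.23 above it when all exon positions were counted), while LBR, the lowest of the enriched members, stood 2.00 above it. With TMM scaling, which puts the all-gene median at -0.03 and calls 2156 genes enriched and 1874 depleted in place of 1464 and 5317, EMD lost its call (-0.21, adjusted p = 0.216) and TMPO kept one at -0.51.

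At the ER the single-pass members went with the multi-pass members. Among them NUP210 has its anchor near the C-terminus, at residues 1807 to 1833 of 1887, and an N-terminal signal sequence. NUP210, the largest protein of the set, had the highest ER ratios, 2.84 and 2.28 in the lysates, rising from 26.7 and 30.6 RPKM to 190.2 and 149. Its fitted value was 2.28 ± 0.13 (adjusted p = 2.4e-11), and 2.43% of all genes tested stood higher. POM121 gave 1.83 and 1.63, but its second ER total input held 62.9 estimated counts, under the minimum of 64. At a minimum of 10 its fitted value was 1.45 ± 0.17. Set against the cytosol at that minimum it was 0.83 ± 0.24, since POM121 was also enriched with cytosolic LOV-BirA, as given below. The shared entries gave 1.79 and 2.18 for POM121C, 1.32 and 1.27 for SUN1 with GET4, and 2.06 and 1.72 for SUN2 with DNAL4. When entries naming several genes were tested too, an alternative chosen after seeing the data, SUN1 with GET4 was enriched at 1.01 ± 0.10 and SUN2 with DNAL4 at 1.61 ± 0.10. In both ER lysates all 8 members other than EMD and TMPO had log2 ratios above 1, and EMD and TMPO had ratios below 0.

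**Figure D1:**
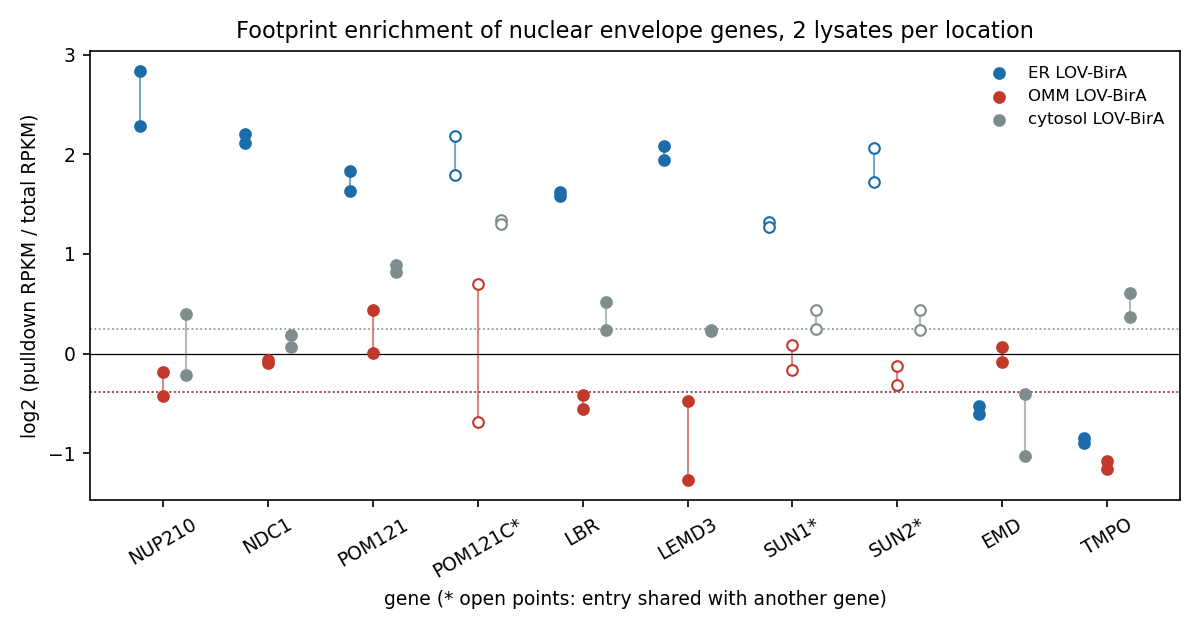
Ratio of pulldown to total input RPKM (log2, y axis) for each of the 10 genes (x axis) in each lysate (points, 2 per location, joined by a line) with LOV-BirA at the ER (blue), OMM (red) or in the cytosol (gray); dotted lines give the mean over both lysates of the median of all genes with at least 64 footprints. At the ER NUP210 reached 2.84, while EMD and TMPO lay between -0.53 and -0.90, and with cytosolic LOV-BirA the members did not form these groups.

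The gap between the multi-pass and the tail-anchored members was taken in each lysate as the mean log2 ratio of NDC1, LBR and LEMD3 minus that of EMD and TMPO. At the ER it was 2.68 and 2.61, with cytosolic LOV-BirA 0.24 and 0.48, and at the OMM 0.04 and 0.13. Every ER value lay above every other value. The sign of the small gaps away from the ER depended on how EMD was counted and on the genes set against each other. Over all exon positions they were -0.56 and -0.33 at the OMM and -0.12 and -0.02 in the cytosol, and against EMD alone the OMM gaps were -0.50 and -0.44, while the ER gaps were 2.53 and 2.39 over all exon positions. The mean was 2.65 ± 0.05 (SD, n = 2) at the ER against 0.36 ± 0.18 in the cytosol and 0.09 ± 0.06 at the OMM. The 2-sided exact permutation test over lysates gave p = 0.333 for the ER against the cytosol and p = 0.133 for the ER against the other 4 lysates, each the smallest p that so few lysates allow.

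The cytosolic LOV-BirA is the control for position. Here NDC1 had log2 ratios of 0.18 and 0.07, LBR of 0.24 and 0.52, LEMD3 of 0.24 and 0.23, NUP210 of 0.40 and -0.22 and TMPO of 0.37 and 0.60. The median of all genes was 0.24 and 0.25 in these lysates, on the same scale, and in the fit these 5 members lay -0.16 to 0.23 from the all-gene median. In the fit, 0 of 6 members were called enriched (background 2.02%) and 1 was called depleted (background 5.96%), EMD at -0.91 ± 0.14 (adjusted p = 0.000253). Of the other 5 members in this fit none had an adjusted p below 0.116. At an unadjusted p below 0.05, 1504 of 7162 genes passed, TMPO among them at 0.25 ± 0.09. Calls among the members changed when cytosol replicate 1 was left out, as did the number called over all genes. EMD had ratios of -0.40 and -1.03, and its call rests on the 95 coding positions, as described below. POM121, outside this fit, had ratios of 0.82 and 0.89. At a minimum of 10 footprints POM121 was called enriched at 0.62 ± 0.17 (adjusted p = 0.0344), as were 148 of 9960 genes. The shared entries gave 1.34 and 1.30 for POM121C, 0.44 and 0.24 for SUN1 with GET4, and 0.44 and 0.24 for SUN2 with DNAL4. The second total input of POM121C held 7.52 estimated counts.

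Set against the cytosol, the ER effect was higher for NUP210 by 2.42 ± 0.18, for NDC1 by 1.99 ± 0.13, for LEMD3 by 1.73 ± 0.16 and for LBR by 1.17 ± 0.13. It was lower for TMPO by a log2 value of -1.41 ± 0.13. For EMD the difference was 0.06 ± 0.19 (adjusted p = 0.788), which was not detectable. So 4 of 6 were called higher at the ER (background 19.6%) and 1 lower (background 62.6%). Against the OMM the same 4 members were higher, by 2.56 ± 0.18 for NUP210, 2.48 ± 0.18 for LEMD3, 1.94 ± 0.14 for NDC1 and 1.79 ± 0.14 for LBR (background 18.6%). EMD was lower at the ER than at the OMM by -0.87 ± 0.21 (adjusted p = 0.0021, background 31.1%), a call that TMM scaling ended (-0.54, adjusted p = 0.0613). TMPO gave -0.06 ± 0.14 (adjusted p = 0.739). These comparisons share the ER lysates. EMD's difference from the cytosol was sensitive to the scale and to the positions counted, with 0.70 (adjusted p = 0.00868) under TMM and -0.37 (adjusted p = 0.0117) over all exon positions.

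Other genes of the nuclear envelope and of the tail-anchored kind were taken as reference lists, also with earlier results of these data known. Of 18 other nuclear envelope membrane proteins, 13 could be tested at the ER. Of these, 11 were enriched (background 19.8%) and 2 depleted (background 72%), with a median of 1.56 against -0.68 for all genes. DHCR7, a sterol reductase related to LBR, stood highest at 2.14 ± 0.12. The nesprin gene SYNE1, whose protein is very long and anchored at its C-terminus, stood lowest at -1.45 ± 0.13. Of 17 other tail-anchored ER proteins, 14 could be tested. Of these, 0 were enriched and 13 depleted (the same backgrounds), with a median of -0.63, close to that of all genes. The value nearest to 0 was that of SEC61G, a subunit of the Sec61 channel, at -0.03 ± 0.11 (adjusted p = 0.812), and the lowest that of VAPB at -0.96 ± 0.11. EMD at -0.85 lay within the range of this list and TMPO at -1.16 below it.

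Proteins of the envelope that do not cross the membrane gave the other reference. Of 28 soluble nucleoporins 24 could be tested at the ER. Of these, 23 were depleted (background 72%), with a median of -0.83 against -0.68 for all genes. The exception was NUP155, a scaffold nucleoporin, at 0.91 ± 0.09 (adjusted p = 2.4e-08), and the lowest was TPR, of the nuclear basket, at -1.68 ± 0.13. The OMM value of NUP155 was -0.83 ± 0.09. All 4 genes of the lamina list were depleted (background 72%), from BANF1 at -0.42 ± 0.14 to LMNB1 at -1.45 ± 0.09. NUP210 and NDC1, the transmembrane nucleoporins tested, stood above NUP155, and no test of the difference between the lists was made.

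Over all tested genes with a canonical protein, 7348 of 7381, the position of the segment was associated with ER enrichment. Of 1964 other genes with a hydrophobic segment that was not tail-anchored-like, 59.5% were enriched, with a median of 1.30. Of 150 other tail-anchored-like genes, which have exactly 1 segment that ends within 30 residues of the C-terminus, 34% were enriched and 56.7% depleted, with a median of -0.47. Of 5228 genes with no segment 4.53% were enriched, with a median of -0.78. By residues left after the first segment, the median ER value was -0.46 for 156 genes with at most 30, 0.31 for 200 genes with 31 to 100, 1.28 for 595 genes with more than 100 and up to 300, and 1.59 for 1169 genes with more. NDC1, LBR and LEMD3 belong to the last of these bins and EMD and TMPO to the first. The tail-anchored-like class was spread over both sides of 0, with quartiles of -0.76 and 1.70. A signal sequence scoring under 1.6 goes unseen by the search, so the class may hold proteins that are not tail-anchored. In the reference list of tail-anchored ER proteins 0 of 14 were enriched.

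**Figure D2:**
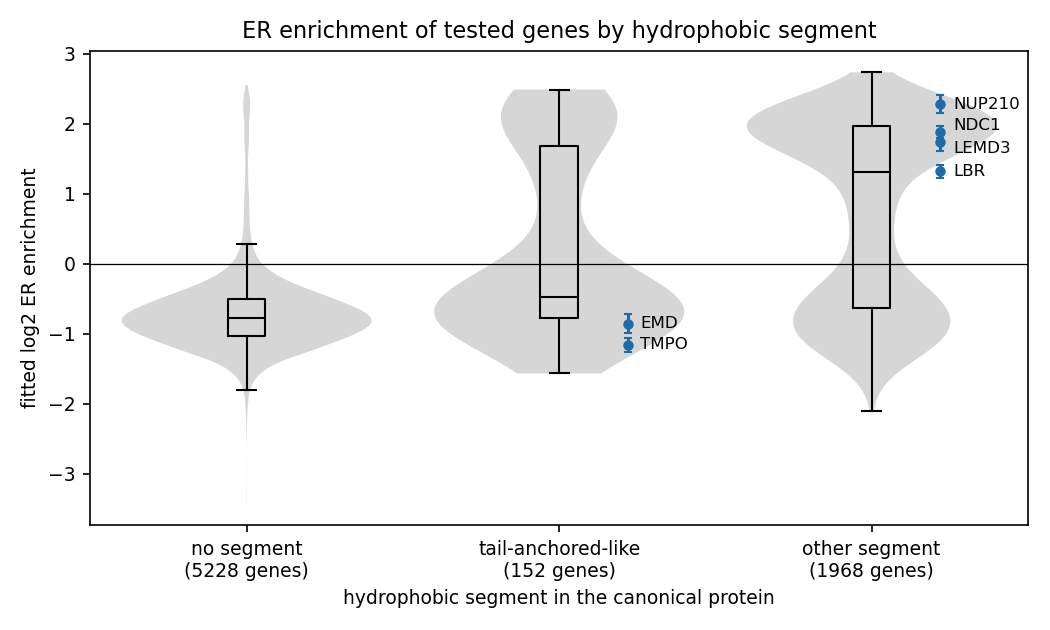
Fitted log2 ER enrichment (y axis) of all tested genes, by hydrophobic segment in the canonical protein (x axis), as gray densities with the median, quartiles and whiskers to 1.5 interquartile ranges; blue points are the 6 tested members ± SE. EMD (-0.85) and TMPO (-1.16) lie below the median of the tail-anchored-like class, and NUP210, NDC1, LEMD3 and LBR lie between 2.28 and 1.32, at or above that of the class with other segments.

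At the OMM no member was called enriched by its coding footprints, and TMPO, LEMD3 and LBR were called depleted. The OMM pulldowns were thin, with 56.0 and 228 estimated counts of LEMD3 and 201 and 478 of NDC1, and among the 6 tested members the LEMD3 replicates differed most. NDC1 had log2 ratios of -0.06 and -0.09, LBR of -0.42 and -0.56, LEMD3 of -1.27 and -0.47, NUP210 of -0.43 and -0.19 and TMPO of -1.16 and -1.08, where the all-gene median was -0.40 and -0.38. Of 6 members 0 were called enriched (background 17%) and 3 depleted (background 46%): TMPO at -1.10 ± 0.10 (adjusted p = 7.8e-08), LEMD3 at -0.75 ± 0.15 (0.000287) and LBR at -0.47 ± 0.10 (0.000624). Relative to the all-gene median of -0.38, LBR lay 0.09, LEMD3 0.37 and TMPO 0.72 lower, and 4.67% of genes lay below TMPO. With TMM scaling LBR lost its call (-0.15, adjusted p = 0.205) and NDC1 gained one (0.26, adjusted p = 0.0385). Members called lower at the OMM than in the cytosol were LBR by -0.62 ± 0.14, LEMD3 by -0.75 ± 0.19 and TMPO by -1.35 ± 0.14 (background 39.7%), and EMD was higher by 0.93 ± 0.21 (background 16.6%).

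For EMD the answer at the OMM turned on which positions were counted. Over the 95 coding positions the ratios were -0.08 and 0.06, a fitted value of 0.02 ± 0.16 (adjusted p = 0.931). Over all 1969 exon positions of the gene they were 0.84 and 0.91, and EMD was called enriched at 0.89 ± 0.09 (adjusted p = 3.4e-07, background 16.5% of 8431 genes). The 95 positions held 17.2% to 19.1% of the EMD counts in the OMM total inputs and 10.1% and 9.57% in the OMM pulldowns. The same share was 18.2% in both ER total inputs against 15.1% and 13.3% in the ER pulldowns, and in the second cytosolic lysate 17.2% against 8.66%. The share was thus lower in the pulldown than in the total input of every lysate. Outside the 95 positions the log2 ratios were 0.99 and 1.03 at the OMM, 0.36 and 0.10 in the cytosol, and -0.20 and -0.08 at the ER. The exon count also includes the coding bases that the authors' coding region leaves out, and the files do not give the positions of single footprints. Whether the counted positions sit in a stretch with a different pulldown share was not tested. Over all exons at the ER, EMD stayed depleted at -0.42 ± 0.09 (adjusted p = 0.000276), as were 72% of 8997 genes, and it lay 0.23 above the all-gene median of -0.65, where the coding count had put it below the median. Its cytosolic call was lost (-0.05, adjusted p = 0.784).

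TMPO did not share this dependence. Over its exons the log2 ratios were -0.94 and -0.97 at the OMM, -0.87 in both ER lysates and 0.33 and 0.39 in the cytosol, all of the same sign as the coding values. At the ER neither tail-anchored gene was enriched, but over all exons EMD lay 0.23 above the all-gene median and TMPO 0.43 below it. At the OMM the 2 genes differed in call, and over all exons EMD was enriched and TMPO depleted.

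**Figure D3:**
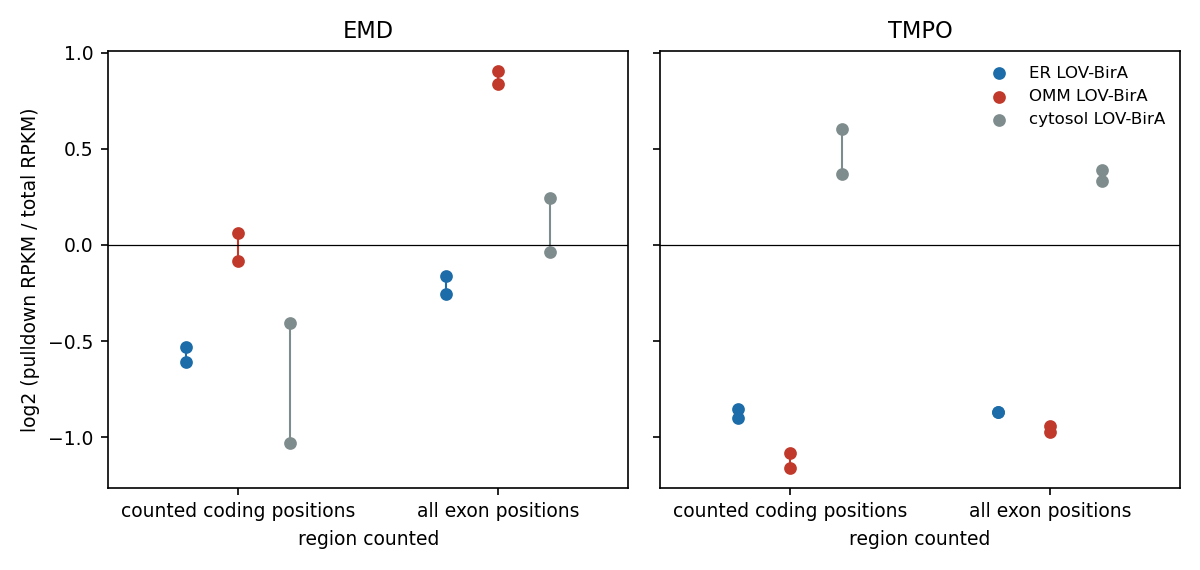
Ratio of pulldown to total input RPKM (log2, y axis) of EMD and TMPO in each lysate (points, 2 per location) for the deposited coding positions and for all exon positions (x axis). The OMM points of EMD move from -0.08 and 0.06 to 0.84 and 0.91, and those of TMPO stay below -0.9.

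Intact mRNA pulled down at the OMM gave a second measure for all 10 genes. In wild-type cells EMD mRNA rose from 65.5 and 115 CPM in the total inputs to 147 and 281 in the pulldowns, log2 ratios of 1.16 and 1.29, which the replicates share although their levels differ. The fit gave 1.23 ± 0.11 (adjusted p = 4e-05), and 4.53% of all genes stood higher. EMD was the only member enriched (background 20.2%). Below it, 7 members were called depleted (background 45.6%), with values from -0.44 ± 0.10 for LBR to -0.65 ± 0.09 for NDC1 and -0.65 ± 0.11 for NUP210. TMPO had -0.57 ± 0.09, LEMD3 -0.58 ± 0.09, SUN1 -0.56 ± 0.09 and POM121C -0.45 ± 0.17 (adjusted p = 0.0461). POM121 at -0.47 ± 0.19 (adjusted p = 0.0615) and SUN2 at -0.03 ± 0.11 (adjusted p = 0.825) were not called. The median of all genes was -0.28, so the depleted members lay 0.16 to 0.37 below it. With TMM scaling, which calls 4296 genes enriched and 3847 depleted in place of 2803 and 6324, LBR, POM121C and TMPO were no longer called. Of the tail-anchored reference list, 7 of 17 were enriched in this assay and 6 depleted, with a median of 0.09.

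Among the members, the largest difference in OMM enrichment between the AKAP1 null line and wild type was that of EMD. EMD stood at 111 and 97.5 CPM in its total inputs and 142 and 121 in its pulldowns, log2 ratios of 0.36 and 0.31, both below both wild-type ratios. The difference in enrichment was -0.89 ± 0.15 (adjusted p = 0.00632), where 7.96% of genes were called lower. EMD was still enriched in the null line itself, at 0.33 ± 0.11 (adjusted p = 0.0352, background 13.9%), and TMPO was depleted at -0.25 ± 0.09 (adjusted p = 0.0487, background 28.1%). Neither call held when AKAP1 null replicate 1 or replicate 2 was left out, and calls over all genes in this line fell as well. The call of a difference for EMD rests on both replicates of both genotypes: without any 1 of these lysates the value was -0.83 to -0.96 but was not called. Over all genes, too, fewer differences were called in these fits. NUP210, LEMD3, SUN1, LBR and NDC1 were called higher in AKAP1 null than in wild type (background 6.52%), by 0.64 ± 0.15, 0.58 ± 0.13, 0.59 ± 0.13, 0.52 ± 0.15 and 0.45 ± 0.12. The median of all genes also moved, by 0.19, which leaves 0.26 to 0.45 for these genes, and under TMM none of the 5 was called (adjusted p 0.0752 to 0.323), while EMD was (-1.07, adjusted p = 0.00386). EMD was not alone among tail-anchored genes. Of the 17 reference genes, 3 were called lower in AKAP1 null, CYB5A at -1.44, SEC61G at -1.43 and USE1 at -0.94. They are named here after their values were seen, and all 3 were enriched in wild type. Of the same list 0 were called higher. Its values ran from -1.44 to 0.32, with a median of 0.06 against 0.19 for all genes.

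In the LARP4 null line EMD stood at 85.2 and 103 CPM in total inputs and 168 and 157 in pulldowns, log2 ratios of 0.98 and 0.61, between the wild-type and AKAP1 null values. EMD was enriched at 0.79 ± 0.11 (adjusted p = 0.000564, background 22.8%), and 4 members were depleted (background 30%): NDC1 at -0.55 ± 0.09, NUP210 at -0.47 ± 0.10, TMPO at -0.40 ± 0.09 and SUN1 at -0.32 ± 0.09. Which members were called changed when a LARP4 null replicate was left out, as did the number called over all genes. For the difference from wild type edgeR called 0 of 13856 genes (0%), with 2270 at an unadjusted p below 0.05, while DESeq2 called 456. EMD had -0.43 ± 0.15 (adjusted p = 0.299), with -0.64 (adjusted p = 0.0278) under DESeq2 and -0.62 without LARP4 null replicate 1. In the edgeR fit all 10 members lay between -0.43 and 0.75. POM121 and POM121C had replicate ratios of -0.41 and 0.60 and of -0.13 and 0.71 in this line, the widest spread among the members. Both comparisons share the wild-type libraries.

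The total-input mRNA of the 10 genes did not differ detectably between genotypes. The log2 difference of AKAP1 null from wild type ran from -0.20 to 0.21 over the members, with no edgeR adjusted p below 0.973, and that of LARP4 null from -0.28 to 0.14, with none below 0.990. These are bulk values, means over the cells of the HEK293T line. Few genes of any kind were called, 0 of 13977 for AKAP1 null (0%, with 489 at an unadjusted p below 0.05 and 15 called by DESeq2) and 2 for LARP4 null (0.0143%). EMD had the largest standard error of the members in these comparisons, 0.27, and wild-type total inputs of 65.5 and 115 CPM.

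Without CHX there was 1 lysate, so its values have no replicate check. EMD had a log2 ratio of 0.88 and SUN2 of 1.05, where SUN2 had 0.04 and -0.10 with CHX. NDC1 had -0.80, TMPO -0.57, LBR -0.37 and LEMD3 -0.36, and the median of all genes was -0.11. EMD and SUN2 were the only members above 0 in this lysate.

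**Figure D4:**
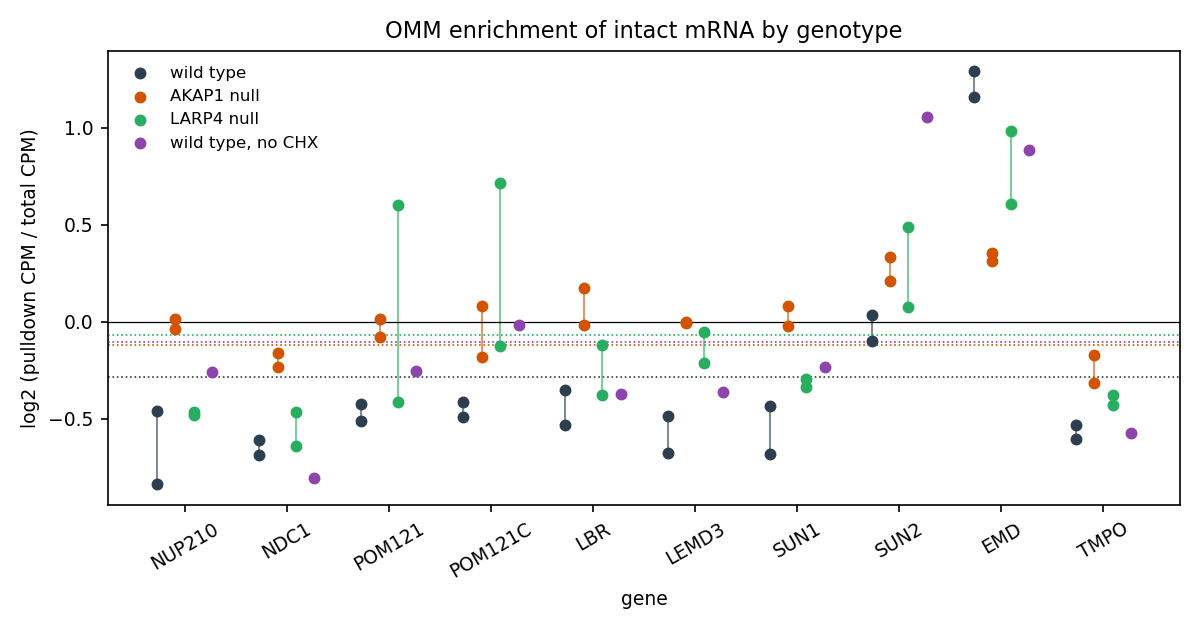
Log2 ratio of CPM, OMM pulldown over total input (y axis), of intact mRNA of each gene (x axis) in each lysate (points, 2 per genotype, 1 without CHX); dotted lines give the all-gene median, averaged over the lysates of a group. EMD stands apart at 1.16 and 1.29 in wild type and at 0.36 and 0.31 in AKAP1 null cells, and SUN2 reaches 1.05 without CHX.

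The genes most like these profiles were found by Euclidean distance over the 6 log2 RPKM ratios, among 6434 genes. Nearest to the mean profile of NDC1, LBR and LEMD3 were TMEM129 (distance 0.234), ADIPOR2 (0.267) and RTN4 (0.277), which are membrane proteins of the ER or cell surface and had ER ratios of 1.81 to 2.12. Nearest to the mean profile of EMD and TMPO were PRPF31 (0.156), a splicing factor, SNX2 (0.243), a sorting nexin, and AURKA (0.288), a mitotic kinase, with ER ratios of -0.60 to -0.82. None of these 3 proteins has a hydrophobic segment by the search above.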

How the data were processed

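Ribosome profiling (12 libraries) and RNA-seq (14 libraries) were analysed from gene tables. In the authors' processing, rRNA and tRNA reads were removed with Bowtie, footprints were aligned to GRCh38 with TopHat, and plastid counted footprints of 27 to 36 nt over Ensembl 104 genes, leaving out positions that do not map uniquely. The deposited estimated counts per region were rounded to whole numbers for the fits, and the deposited RPKM, scaled by the authors to all reads on annotated transcripts, gave the per-lysate ratios. RNA-seq reads were aligned by the authors with STAR and counted with featureCounts, and the deposited counts were used. A further deposited column, a score close to 10 times the FPKM, was not used. FPKM and CPM of RNA-seq were computed here from the counts. A malformed ANK2 entry was left out.

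Fits used edgeR 4.0.16 (quasi-likelihood, Benjamini-Hochberg) on all genes, with lysate as a block, over genes with at least 64 footprints in each total input or a mean of 64 counts. Total inputs of RNA-seq alone were compared with TMM. DESeq2 1.42.0 was an alternative, with other minimums, scalings, regions, the fit without the block and leaving out each replicate. Total input and pulldown of a lysate deviated together (r = 0.620 to 0.886), and the methods take both from the same lysate. Segments were found in proteins translated from GENCODE 44. The segment sequence of EMD is not reported here. Statistics were tested on simulated data. The members and lists were chosen with earlier results of these data known. Named genes were the members, the highest and lowest gene of each list at the ER, and the 3 genes nearest to each profile.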

Additional observations from a re-analysis of the deposited data

Results flagged for a closer look

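Several members had enrichments that differed between locations or genotypes, each tested as a contrast in the same edgeR fit. Between the ER and the cytosol the log2 enrichment differed by 2.42 for NUP210, 1.99 for NDC1, 1.17 for LBR, 1.73 for LEMD3 and -1.41 for TMPO. Between the ER and the OMM it differed by 2.56 for NUP210, 1.94 for NDC1, 1.79 for LBR, 2.48 for LEMD3 and -0.87 for EMD. Between the OMM and the cytosol it differed by -0.62 for LBR, -0.75 for LEMD3, -1.35 for TMPO and 0.93 for EMD. In OMM RNA-seq, AKAP1 null minus wild type was -0.89 for EMD, 0.64 for NUP210, 0.45 for NDC1, 0.52 for LBR, 0.58 for LEMD3 and 0.59 for SUN1.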

How the results depend on the processing

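Single values called in the report kept their direction in every alternative run, leave-one-out fits included. Outside leave-one-out, 267 of these alternative values were still called and 55 were not. The lysate block comes from the design. Without this replicate block the members called were 0 with cytosolic LOV-BirA (1 with it), 1 for OMM minus cytosol (4), 0 in AKAP1 null (2), 2 in LARP4 null (5) and 0 for AKAP1 null minus wild type (6). Calls over all genes fell too, to 29 from 572, 254 from 3639, 2198 from 5822, 3667 from 7312 and 429 from 2006 in turn. DESeq2 called 2 members for OMM minus cytosol, 2 for AKAP1 null minus wild type and 1 for LARP4 null minus wild type (0 in edgeR). Over all genes it called 2454, 1736 and 456 (3639, 2006 and 0 in edgeR). TMM called 5 in wild type (8) and 1 for AKAP1 null minus wild type, with 8143 (9127) and 1709 (2006) over all genes. A minimum of 10 gave 2 in the cytosol (670 of 9960 genes) and 1 in AKAP1 null (6363 of 18687). No minimum gave 2 (835 of 13697 genes), 1 (7023 of 39877) and, for LARP4 null minus wild type, 2 (1087 of 39877). Scaling to reads on transcripts gave 3 in the cytosol (2634 of 7162 genes). Fitting 1 genotype alone gave 4 in AKAP1 null (7922 of 13526 genes) and 2 in LARP4 null (3842 of 14369).

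The gap at the ER was 2.4953 against EMD alone, 2.4602 over all exons and 2.7364 as a median over members. At the OMM it was 0.3426 with all 8 other members, -0.4682 against EMD alone and -0.4436 over all exons, and in the cytosol 0.5751, 0.9623 and -0.0697. Among the uncalled log2 values followed singly through the alternatives, those that changed sign were, at the OMM, NUP210 (0.0669 DESeq2, 0.0393 TMM), NDC1 (0.2899, 0.2593) and EMD (-0.0019, reads on transcripts). In the cytosol, scaled to reads on transcripts, they were NUP210 (0.0938) and NDC1 (0.1269). For ER minus cytosol it was EMD over all exons (-0.3687), and for ER minus OMM TMPO (0.1975 DESeq2, 0.2648 TMM, 0.2415 reads on transcripts). For OMM minus cytosol they were NUP210 (0.1855 DESeq2, 0.1784 TMM) and NDC1 (-0.2062, reads on transcripts), and in wild-type RNA-seq SUN2 (0.2557 DESeq2, 0.2654 TMM). Of the values given only as ranges, TMM also turned NUP210 (0.11), POM121 (0.09), POM121C (0.07) and LEMD3 (0.12) in AKAP1 null, and NUP210 (-0.03), NDC1 (-0.11), LBR (-0.01) and TMPO (-0.04) for LARP4 null minus wild type. The cause was not tested.

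With 1 replicate left out at a time, and the lone sample assumed to vary like the others, members called ranged from 1 to 3 in the cytosol, were 0 in AKAP1 null and 7 to 8 in LARP4 null, and ranged from 0 to 1 for AKAP1 null and 0 to 4 for LARP4 null minus wild type. Values that changed sign ranged from -0.0592 to 0.0746 (EMD, OMM), -0.4466 to 0.1624 (NUP210, cytosol), -0.0031 to 0.0034 (LEMD3, cytosol), -0.2171 to 0.4021 (EMD, ER minus cytosol), -0.1701 to 0.0507 (TMPO, ER minus OMM), -0.4399 to 0.1691 (NUP210, OMM minus cytosol), -0.0076 to 0.1014 (NDC1, OMM minus cytosol) and -0.0982 to 0.0371 (SUN2, wild-type RNA-seq). Depth limits the OMM footprints most, where LEMD3 had 56.0 counts in pulldown replicate 1.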
